A study of Mus musculus with 7 samples.

Results

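The nuclear genes of the mitochondrial respiratory chain and of ATP synthase were compared between 2 populations of bone marrow cells. They were chosen by name, as every gene whose platform symbol begins with Ndufa, Ndufb, Ndufc, Ndufs or Ndufv (complex I), Sdha to Sdhd (complex II), Uqcr (complex III), Cox4 to Cox8 (complex IV) or Atp5 (complex V). The rule found 94 genes of the 18193 genes that had a probe set naming a single gene. Of these, 80 encode subunits of the 5 complexes, namely 34 of complex I, 4 of complex II, 8 of complex III, 17 of complex IV and 17 of complex V. The other 14 are assembly factors and related proteins whose symbols share the same beginnings. Cox7b is not analysed here. A low-signal filter, which asked that at least 3 arrays exceed their own 40th percentile, passed 91 genes and left out Ndufb4, Cox7a1 and Cox7b2.

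The respiratory chain passes electrons from NADH (complex I) and succinate (complex II) through complex III to oxygen at complex IV, and complexes I, III and IV pump protons across the inner mitochondrial membrane. ATP synthase uses the returning protons to make ATP. The catalytic parts of complexes III and IV and the membrane arm of complex I include subunits encoded in mitochondrial DNA, while the genes compared here are all nuclear. Accessory subunits surround these cores, and some complex IV subunits exist as isoforms known from muscle, testis or lung.

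RNA was measured on 7 Affymetrix Mouse GE 430 2.0 arrays. The mice were wild type, of strain C57Bl/6J and 6 to 12 weeks old. Cells without CD45 (Ptprc) and lineage markers were sorted from bone marrow. The CD54+CD31-BP1+ cells, labelled stromal, filled 4 arrays (stromal 1 to 4). The CD54-CD31+ cells, labelled endothelial, filled 3 arrays (endothelial 1 to 3). CD54, BP1 and CD31 are the products of Icam1, Enpep and Pecam1. Each array received RNA amplified from 1800 to 10000 cells, and both populations were untreated. The labels do not say whether arrays come from separate mice or sorts, so p-values measure only the spread between these samples, which may be technical. With 7 arrays, precision is limited by their number.

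Values are deposited log2 expression values, and every difference is stromal minus endothelial on that scale. Array medians lay between 6.00 and 6.19. The 5 stromal markers read (Cxcl12, Lepr, Ebf3, Foxc1 and Kitl) were all called higher on stromal arrays. Their median level was 12.87 to 13.11 on the 4 stromal arrays and 5.39 to 6.08 on the 3 endothelial arrays. Lepr and Foxc1 passed the low-signal filter only through the stromal arrays, so their calls add no support. The endothelial label was only partly borne out: Cdh5 and Emcn, 2 of the 6 endothelial markers read, did not pass the low-signal filter, at means of 4.64 and 3.89 on stromal arrays against 5.39 and 4.14 on endothelial arrays. Of the other 4, 3 were called higher on endothelial arrays. All 7 megakaryocyte and platelet markers tested were higher on endothelial arrays, with a median level of 5.82 to 9.56 on stromal arrays, where stromal 4 was highest, and 14.30 to 14.35 on endothelial arrays. Leukocyte markers were called higher there as well (4 of 5), although both sorts excluded CD45+ cells, as were those of neutrophil precursors (5 of 5), B lineage (2 of 3), erythroid (1 of 2) and cycling cells (3 of 3). Ptprc, which encodes CD45, measured 7.01, 7.42, 4.91 and 6.45 on stromal arrays and 9.36, 10.94 and 8.63 on endothelial arrays, and was called higher on endothelial arrays (limma adjusted p = 0.00439). All endothelial arrays were thus above all stromal ones for a gene whose protein the sort gated out. The genes of the positive and negative sort markers followed their labels, with mean levels of 12.00 on stromal and 5.08 on endothelial arrays for Enpep, and 4.93 on stromal and 8.41 on endothelial arrays for Pecam1. Icam1 measured 10.31 to 11.02 on stromal and 4.77 to 5.74 on endothelial arrays. It passed the filter only through the stromal arrays, and Pecam1 only through the endothelial arrays. The 18 probe sets of the hybridisation controls (spiked-in RNA) averaged 9.51 to 9.67 on stromal arrays and 9.75, 11.33 and 11.37 on endothelial 1, 2 and 3. The part of these differences in the results below was not tested, except that fits with the hybridisation split as a block, and without single arrays, are given. In such bulk samples, fewer cells of a type and less RNA per cell cannot be told apart.

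The respiratory genes moved in both directions, and most differed little. A gene was called where limma's adjusted p was under 0.05, adjusted by Benjamini-Hochberg over the 13995 genes tested, and the difference was at least 1, on the log2 scale. Of the 91 genes tested, 8 were called higher on stromal arrays and 13 higher on endothelial arrays, while 70 were called in neither direction. Over all genes tested, 47.0% were called, 30.9% higher on stromal arrays and 16.1% higher on endothelial arrays. The respiratory genes called therefore make up a smaller share than in the background in each direction. In the deposited values the balance between their calls leans the other way. Their median difference was -0.23, against 0.19 over all genes tested. Under a second quantile normalization the medians were -0.34 and -0.12, and under cyclic loess they were -0.44 and -0.03. In the deposited values 38.1% of the respiratory calls were higher on stromal arrays, compared with 25.0% and 18.2% under those scalings. The corresponding shares of all calls were 65.7%, 52.0% and 57.8%. Without stromal 4, endothelial 2 and endothelial 3 in turn, the respiratory share was 50%, 51.7% and 53.8%, against 64.6%, 65.5% and 66.1% of all calls. There the respiratory calls no longer leaned toward endothelial arrays, while the other fits without a single array gave 28% to 35.7%. With the hybridisation block the medians were 0.0082 and 0.29. In that fit the respiratory calls leaned toward stromal arrays, as did those of all genes.

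The spread of the differences was also narrower than for other genes. The absolute difference was under 1 for 66 of 91 genes (72.5%), compared with 7136 of all 13995 genes (51.0%), and its median was 0.65, compared with 0.98. It exceeded 2 for 4 respiratory genes, Ndufs3, Ndufv1, Sdhaf3 and Ndufaf1, all higher on stromal arrays. The 2 groups of arrays did not overlap for 16 genes with stromal above and 22 with endothelial above, a total of 38 (41.8%). Over all genes tested 68.4% did not overlap, 35.7% with stromal above and 32.7% with endothelial above. At adjusted p alone, 16 genes were higher on stromal and 25 on endothelial arrays, against 36.9% and 31.5% of all genes. Of the 21 calls, 5, those of Ndufs3, Sdhaf3, Cox5a, Cox6a2 and Cox6b2, were made under both other scalings, under both blocks and without any single array. With the hybridisation block, which sets endothelial 1 alone against the stromal arrays, 9 genes were called higher on stromal and 4 on endothelial arrays. The counts were 7 and 7 without stromal 4, 7 and 6 without endothelial 3, and 15 and 14 without endothelial 2.

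**Figure D1:**
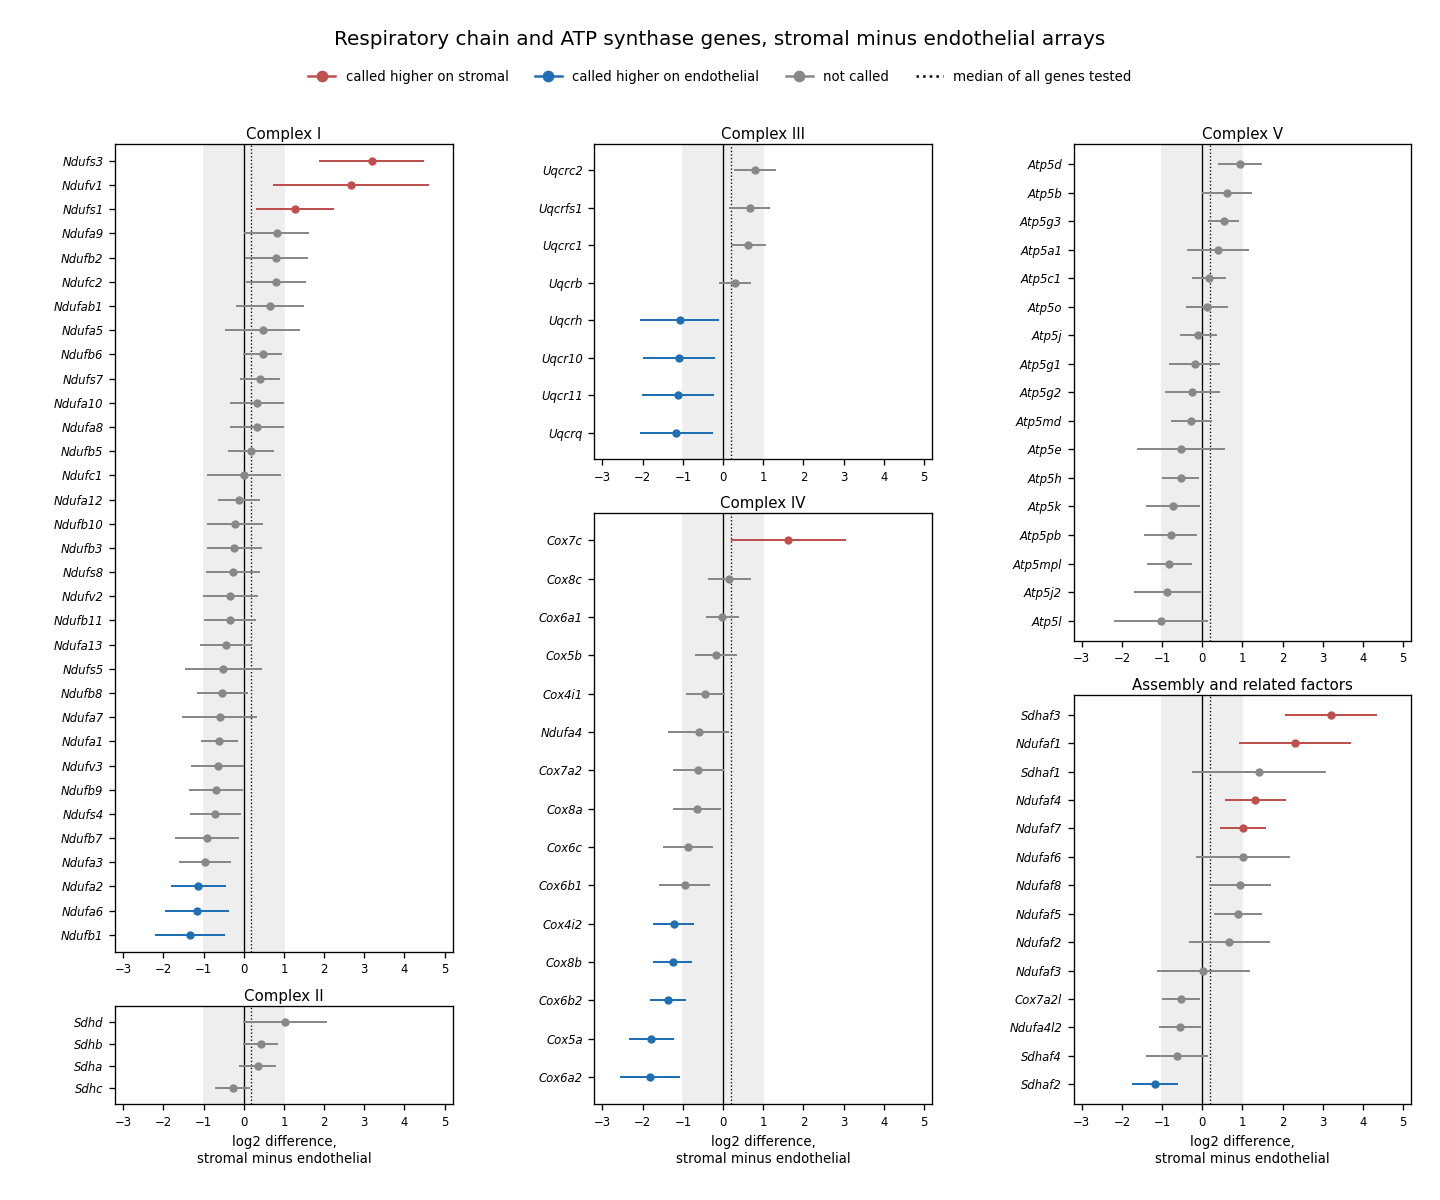
Log2 difference, stromal minus endothelial, of each of the 91 genes tested, in 1 panel per complex; points are fitted differences, bars their 95% intervals, colours the calls, the dotted line the median of all genes tested and the grey band differences under 1. The largest positive values are those of Sdhaf3 (3.20) and Ndufs3 (3.18), and the largest negative ones those of Cox6a2 (-1.81) and Cox5a (-1.79).

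The direction differed between the subunits grouped here as core and as accessory. The core group was taken as the flavin, iron-sulfur and quinone-binding subunits of complex I, the 4 subunits of complex II, Uqcrc1, Uqcrc2 and Uqcrfs1 of complex III, and the F1 part of ATP synthase, which makes ATP. Of 18 core subunits tested, 14 had a positive difference and 4 a negative one, with a median of 0.52, and 3 were called higher on stromal arrays and 0 on endothelial arrays. Of 59 accessory subunits, 15 had a positive difference and 44 a negative one, with a median of -0.54, and 1 was called higher on stromal and 12 on endothelial arrays. Over all genes tested, 7555 differences were positive and 6440 negative. All 15 complex IV subunits tested were grouped as accessory, as were the c ring and peripheral stalk of ATP synthase. Complex II held core subunits only, so role and complex cannot be fully told apart. The core and accessory medians were 0.84 and -0.35 in complex I, 0.66 and -1.09 in complex III, and 0.39 and -0.41 in complex V. The sign counts depend on the probe set used. Among core subunits, Atp5a1, Ndufs7, Ndufs8, Ndufv2, Sdhc and Sdhd had probe sets of both signs, as did some accessory subunits. Beside 30.9% and 16.1% of all genes, both kinds of subunit had a smaller share called higher on stromal arrays, and the accessory share called higher on endothelial arrays was near the background. The 12 accessory calls were 4 with the hybridisation block, 6 without stromal 4, 6 without endothelial 3 and 8 without stromal 1. The 3 core calls were 1 with the hybridisation block and without stromal 1, and 5 without endothelial 2. The core median stayed positive and the accessory median negative under both scalings (0.38 and -0.59 with quantile normalization, 0.25 and -0.70 with loess), with the hybridisation block (0.54 and -0.25) and without any single array. At adjusted p alone the counts were 7 and 0 for core subunits and 3 and 23 for accessory subunits, beside 36.9% and 31.5% of all genes. The core share toward stromal arrays was near the 36.9%, and the accessory share toward endothelial arrays somewhat above the 31.5%. No test of the core against the accessory group was made. The median level of the core subunits was 11.00 to 11.50 on stromal arrays and 10.75 to 10.81 on endothelial arrays. The median level of the accessory subunits was 10.82 to 11.62 on stromal arrays and 11.56 to 11.92 on endothelial arrays.

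Promoters are shown for 3 genes that mark these directions: Ndufs3, a complex I core subunit called higher on stromal arrays, and Cox5a and Uqcr11, accessory subunits of complexes IV and III called higher on endothelial arrays. The 250 bases before the start site were read from RefSeq on GRCm38.p6, and each lies upstream of its gene. They lie at chr2:90904722-90904971 (minus strand) for Ndufs3, chr9:57520982-57521231 (plus strand) for Cox5a and chr10:80406822-80407071 (minus strand) for Uqcr11. Capitals mark CCGGAAG, the core that ETS factors such as GABPA read.
Ndufs3: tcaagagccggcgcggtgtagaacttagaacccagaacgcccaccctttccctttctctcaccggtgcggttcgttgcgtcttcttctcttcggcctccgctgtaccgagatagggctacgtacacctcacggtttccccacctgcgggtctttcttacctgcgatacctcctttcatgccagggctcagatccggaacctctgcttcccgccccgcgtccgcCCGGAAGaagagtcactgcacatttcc
Cox5a: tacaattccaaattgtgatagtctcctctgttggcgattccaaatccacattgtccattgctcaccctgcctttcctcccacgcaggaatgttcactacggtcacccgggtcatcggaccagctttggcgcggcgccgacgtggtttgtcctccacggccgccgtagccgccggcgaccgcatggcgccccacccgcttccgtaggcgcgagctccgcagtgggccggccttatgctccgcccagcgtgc
Uqcr11: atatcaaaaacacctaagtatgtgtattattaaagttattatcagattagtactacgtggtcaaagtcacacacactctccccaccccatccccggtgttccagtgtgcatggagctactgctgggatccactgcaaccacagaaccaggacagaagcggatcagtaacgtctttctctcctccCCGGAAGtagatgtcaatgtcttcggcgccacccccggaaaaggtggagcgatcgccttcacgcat

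The ETS core began 27 bases before the start in Ndufs3, and Cox5a had no match in this window. It began 66 bases before the start in Uqcr11, a match fixed in advance because Uqcr11 was picked for it. RefSeq promoters were given for 78 of the 94 genes. The ETS core, searched on both strands, was found in 15 of them (19.2%), compared with 7.05% of all 27025 promoters of the same length. Genes called in either direction and in neither held it: 3 of 7 called higher on stromal arrays (Ndufs3, Ndufaf1 and Sdhaf3) and 3 of 9 called higher on endothelial arrays (Uqcr11, Uqcrh and Sdhaf2), and 9 of 59 called in neither direction. The NRF1 core GCATGCG was found in 8 of the 78 (10.3%), compared with 3.07% of all promoters. AAGGTCA, an extended core read by ERR receptors, was found in 5 (6.41%, against 4.05%), and AAGATGG, a YY1 core, in 0 of 78, against 4.53%. Median GC content was 57.6% in these promoters and 52% in all, and the motif shares were not tested. A match describes the letters only.

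Complex I, the NADH dehydrogenase, had calls in both directions. Of 33 subunits tested, 3 core subunits were called higher on stromal arrays and 3 accessory subunits higher on endothelial arrays, with a median of -0.23. Over all genes tested the shares called were larger, at 30.9% and 16.1%. Ndufs3, an iron-sulfur protein subunit near the quinone-binding site, measured 11.30, 11.52, 11.16 and 11.99 on the stromal arrays, against 8.96, 9.22 and 6.76 on the endothelial arrays. Every stromal array was above every endothelial one, and endothelial 3 was lowest. The means were 11.49 ± 0.36 on stromal (SD, n = 4) and 8.31 ± 1.35 on endothelial arrays (SD, n = 3), a difference of 3.18 ± 0.56 (SE) with a limma adjusted p of 0.00159. Without single arrays the difference ranged between 2.40 and 3.63.

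Ndufv1, which binds NADH and the flavin, measured 11.23, 11.27, 11.28 and 10.95 on stromal arrays and 9.38, 10.09 and 6.05 on endothelial arrays. The groups did not overlap, but endothelial 3 stood far below the other endothelial arrays. The difference was 2.67 ± 0.84 (SE; limma adjusted p = 0.0209), and without endothelial 3 it was 1.44 (adjusted p = 0.00181). With the hybridisation block the adjusted p was 0.252, and without stromal 1 it was 0.0508. The 3 probe sets of Ndufv1 gave like differences, of 2.67, 2.19 and 1.99. Ndufs1, the largest iron-sulfur subunit, measured 9.15, 8.79, 8.45 and 9.31 on stromal arrays and 7.39, 8.63 and 6.93 on endothelial arrays. Endothelial 2 overlapped the stromal range, and the difference of 1.28 (limma adjusted p = 0.0228) lost its call under both scalings, with the hybridisation block, and without stromal 1, stromal 4, endothelial 1 or endothelial 3 in turn. The other core subunits tested were not called, at 0.40 for Ndufs7, -0.27 for Ndufs8 and -0.34 for Ndufv2. Each of these had probe sets of both signs.

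Accessory subunits of complex I had a median of -0.35 over 27 genes. Ndufb1, a small membrane-arm subunit, measured 6.27, 6.89, 7.13 and 6.33 on stromal arrays and 7.22, 8.67 and 8.09 on endothelial arrays. Ndufa6, an LYR-motif subunit of the peripheral arm, measured 9.94, 10.62, 10.80 and 9.66 on stromal arrays and 11.06, 11.29 and 11.90 on endothelial arrays. Ndufa2 measured 11.70, 12.04, 12.32 and 11.44 on stromal arrays and 12.51, 13.11 and 13.39 on endothelial arrays. In all 3 the endothelial arrays lay above the stromal ones, though Ndufb1 on endothelial 1 was close to stromal 3. The differences were -1.34 for Ndufb1, -1.16 for Ndufa6 and -1.13 for Ndufa2, with limma adjusted p-values of 0.0127, 0.0153 and 0.00903. None of the 3 was called with the hybridisation block, and Ndufa6 and Ndufa2 were not called without stromal 4 or without endothelial 3, nor Ndufb1 without endothelial 2. Below the minimum difference, Ndufa3 (-0.97), Ndufb7 (-0.91), Ndufs4 (-0.70) and Ndufa1 (-0.61) passed adjusted p alone toward endothelial arrays, and Ndufc2 (0.80) toward stromal arrays. The remaining accessory subunits tested lay between -0.69 (Ndufb9) and 0.82 (Ndufa9) and did not pass. Ndufb4 was dim throughout, at 4.79 to 5.22 on stromal and 5.10 to 5.71 on endothelial arrays.

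Complex II, succinate dehydrogenase, links the tricarboxylic acid cycle to the chain, and its 4 subunits are all nuclear. None was called by the probe set used, beside 47.0% of all genes called in either direction, and their median difference was 0.38. Sdha, the flavoprotein that oxidises succinate, measured 11.54, 11.66, 11.19 and 11.60 on stromal arrays and 11.31, 11.09 and 11.07 on endothelial arrays. Sdhb, the iron-sulfur subunit, measured 11.55, 11.53, 11.65 and 11.44 on stromal arrays and 11.08, 10.92 and 11.38 on endothelial arrays. The groups overlapped for Sdha and were close for Sdhb, at differences of 0.34 (95% interval -0.08 to 0.77) and 0.42 (0.01 to 0.83), with limma adjusted p-values of 0.13 and 0.0645. The membrane anchors differed by -0.28 for Sdhc and 1.02 for Sdhd (adjusted p = 0.188 and 0.0669).

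Other probe sets of these subunits gave other values. The second Sdhc probe set measured 10.06, 10.07, 10.03 and 10.05 on stromal arrays and 8.65, 7.36 and 7.28 on endothelial arrays. Its stromal values were nearly equal and lay above all endothelial ones, a difference of 2.29 with an adjusted p of 0.000824 in the limma fit over all probe sets, while the Sdhc probe set used measured 9.07 to 9.33 on stromal and 9.23 to 9.63 on endothelial arrays. A second Sdha probe set measured 10.52, 10.52, 10.10 and 10.86 on stromal arrays and 9.12, 9.94 and 8.79 on endothelial arrays, a difference of 1.22 that was called. For Sdhd, the second probe set gave -0.45, opposite in sign to the one used (1.02), and neither was called. A result for complex II thus depended on which probe set was read.

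Complex III, which passes electrons from ubiquinol to cytochrome c, split between its large and small subunits. The 3 core subunits were higher on stromal arrays at adjusted p alone, beside 36.9% of all genes, by less than the minimum difference. Of 5 small accessory subunits, 4 were called higher on endothelial arrays, beside 16.1% of all genes. Uqcrc1, a large matrix-side subunit, measured 11.66, 11.51, 11.57 and 11.28 on stromal arrays and 10.97, 10.92 and 10.73 on endothelial arrays. Uqcrfs1, the Rieske iron-sulfur protein, measured 10.46, 10.35, 10.54 and 10.09 on stromal arrays and 9.63, 10.04 and 9.42 on endothelial arrays. The stromal arrays were above the endothelial ones in both, with differences of 0.63 ± 0.17 and 0.66 ± 0.21 (SE; limma adjusted p = 0.0123 and 0.0235). Uqcrc2, the partner of Uqcrc1, differed by 0.80 (adjusted p = 0.0121). Cyc1, the cytochrome c1 of this complex whose symbol lies outside the rule, measured 11.65, 11.33, 11.21 and 11.19 on stromal arrays and 9.98, 9.99 and 9.47 on endothelial arrays. It was called higher on stromal arrays, by 1.53 ± 0.21 (SE; limma adjusted p = 0.000446).

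The small subunits lay the other way. Uqcrq measured 10.05, 11.09, 11.38 and 10.28 on stromal arrays and 11.61, 11.53 and 12.46 on endothelial arrays. Uqcr11 measured 11.30, 11.89, 12.30 and 11.07 on stromal arrays and 12.22, 12.62 and 13.42 on endothelial arrays. Uqcr10 measured 8.35, 9.07, 9.15 and 8.34 on stromal arrays and 10.08, 8.97 and 10.39 on endothelial arrays. The groups were apart for Uqcrq and overlapped for Uqcr11 and Uqcr10, and stromal 1 and 4 were the lowest arrays in all 3. The differences were -1.17, -1.11 and -1.09, with limma adjusted p-values of 0.0258, 0.0292 and 0.0325. Uqcrh, the hinge protein that helps cytochrome c bind, differed by -1.08 (adjusted p = 0.0474). Other probe sets of these subunits gave smaller differences in part. Those tested ranged from -1.09 to -0.09 for Uqcr10, -1.27 to -0.25 for Uqcrq and -1.08 to -0.63 for Uqcrh. Uqcr11 had 1 probe set. None of the 4 kept its call with the hybridisation block, without stromal 1, without stromal 4 or without endothelial 3, although the median of the 5 accessory subunits stayed negative in each of these fits. The remaining subunit, Uqcrb, differed by 0.30 and was not called, and its second probe set gave -0.31.

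Complex IV, cytochrome c oxidase, had the lowest median among the 5 complexes, at -0.65 over 15 subunits tested, with 13 negative differences. Of these, 1 subunit was called higher on stromal and 5 on endothelial arrays, beside 30.9% and 16.1% of all genes. Cox5a, a structural subunit on the matrix side, measured 11.95, 12.05, 12.36 and 11.47 on stromal arrays and 13.85, 13.62 and 13.76 on endothelial arrays. The endothelial arrays were all above the stromal ones by more than the spread within either group. The means were 11.96 ± 0.37 on stromal (SD, n = 4) and 13.74 ± 0.12 on endothelial arrays (SD, n = 3), a 3.45-fold difference (-1.79 ± 0.23 SE, limma adjusted p = 0.000312). Its 3 probe sets gave like differences (-1.79, -1.79 and -1.81), and over all settings tried the difference ranged between -1.92 and -1.62.

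Of the complex IV isoforms known from restricted tissues, Cox6a2, Cox6b2, Cox4i2 and Cox8b were called higher on endothelial arrays. Their broad partners were not called by the probe sets used, though other probe sets of Cox6a1 and Cox6b1 lay further toward endothelial arrays. Cox8b passed the filter only through the 3 endothelial arrays, so its call adds no support. Cox8c (0.16, limma adjusted p = 0.538) was not called, and Cox7a1 and Cox7b2 did not pass the filter. Whether an isoform differed more than its partner was not tested. Cox6a2, the heart and muscle isoform, measured 6.79, 7.55, 7.55 and 6.98 on stromal arrays and 8.66, 8.78 and 9.66 on endothelial arrays. Its difference was -1.81 ± 0.31 (SE; limma adjusted p = 0.00145), and its second probe set gave -2.08. The broad isoform Cox6a1 measured 13.91, 14.06, 14.07 and 14.01 on stromal arrays and 13.95, 13.91 and 14.25 on endothelial arrays. These overlapped, at -0.02 with a 95% interval of -0.41 to 0.36. The sign of this small value turned under both scalings, with the hybridisation block, without stromal 1 and without endothelial 3. A second Cox6a1 probe set gave -0.54 (adjusted p = 0.0448 in the limma fit over all probe sets). On it all endothelial arrays lay above all stromal ones.

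Cox6b2, the testis isoform, measured 6.98, 7.01, 7.09 and 6.85 on stromal arrays and 8.64, 8.27 and 8.17 on endothelial arrays, a difference of -1.38 ± 0.18 (SE; limma adjusted p = 0.000352). Its broad partner Cox6b1 measured 12.35, 12.42, 12.70 and 11.81 on stromal arrays and 12.92, 13.25 and 13.67 on endothelial arrays. Both lay higher on all endothelial arrays, and Cox6b1 at -0.96 (adjusted p = 0.0132) lay just short of the minimum difference and was called in 5 of the alternatives. The second Cox6b1 probe set gave -1.09 and was called higher on endothelial arrays in the fit over all probe sets. Cox4i2 is an isoform known from lung and from low oxygen. It measured 5.81, 5.99, 5.87 and 5.94 on stromal arrays, each below the median of its array, and 6.74, 7.18 and 7.47 on endothelial arrays. Its difference was -1.23 ± 0.21 (SE; limma adjusted p = 0.00134), and it was not called with the hybridisation block (-0.83). Cox4i1, the broad isoform, measured 13.17, 13.25, 13.21 and 12.75 on stromal arrays and 13.35, 13.48 and 13.78 on endothelial arrays, with a difference of -0.44 that was not called (adjusted p = 0.0822).

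Cox8b, an isoform known from muscle and brown fat, measured 4.56, 4.71, 4.81 and 5.04 on stromal arrays and 6.16, 5.73 and 6.20 on endothelial arrays. Its stromal mean lay below the 40th percentile of those arrays, so the difference of -1.25 (limma adjusted p = 0.00104) is limited by the array floor and no fold is given. It was not called under cyclic loess. Cox8a, the broad isoform, measured 11.08, 11.40, 11.64 and 10.79 on stromal arrays and 11.79, 11.67 and 12.17 on endothelial arrays, at -0.65 (adjusted p = 0.0453). Cox8c, an isoform known from testis, measured 8.09, 8.51, 8.61 and 8.80 on stromal arrays and 8.60, 8.12 and 8.31 on endothelial arrays, and its sign depended on the probe set and the scaling. Because different probe sets bind with different strength, these levels do not rank one isoform above another.

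Cox7a2, the broad isoform of its pair, measured 12.42, 12.80, 13.09 and 12.11 on stromal arrays and 13.21, 12.99 and 13.47 on endothelial arrays, with a difference of -0.62 that was not called (adjusted p = 0.0652). Its muscle isoform Cox7a1 did not pass the filter, at 4.79, 5.44, 5.39 and 4.75 on stromal arrays and 4.96, 3.89 and 6.99 on endothelial arrays. The related Cox7a2l, which takes part in joining complexes III and IV, measured 11.86, 11.78, 11.62 and 11.48 on stromal arrays and 11.92, 12.28 and 12.42 on endothelial arrays, at -0.52 (adjusted p = 0.0409). Cox7a1 was highest on endothelial 3 and lowest on endothelial 2, and the endothelial arrays lay above the stromal ones for Cox7a2l. Cox7b2, a testis isoform, was dim throughout, at 3.81, 4.23, 3.89 and 3.99 on stromal arrays and 4.14, 4.39 and 3.93 on endothelial arrays.

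Cox7c was the 1 subunit of complex IV called higher on stromal arrays, and that call was unstable. It measured 7.80, 7.12, 7.69 and 7.75 on stromal arrays and 5.19, 7.72 and 4.97 on endothelial arrays. Endothelial 2 lay within the stromal range, and the difference was 1.63 (limma adjusted p = 0.043), 2.51 without endothelial 2 and 1.14 without endothelial 3. Ndufa4, a subunit first assigned to complex I, measured 11.52, 11.91, 12.17 and 10.78 on stromal arrays and 12.25, 12.12 and 12.23 on endothelial arrays. Its paralog Ndufa4l2, known as a gene induced by low oxygen, measured 6.55, 6.89, 6.67 and 6.55 on stromal arrays and 7.55, 6.81 and 7.31 on endothelial arrays. Neither was called, at -0.61 and -0.55 (adjusted p = 0.121 and 0.0512). Of the remaining subunits, Cox6c differed by -0.87 (adjusted p = 0.0167) and Cox5b by -0.17.

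**Figure D2:**
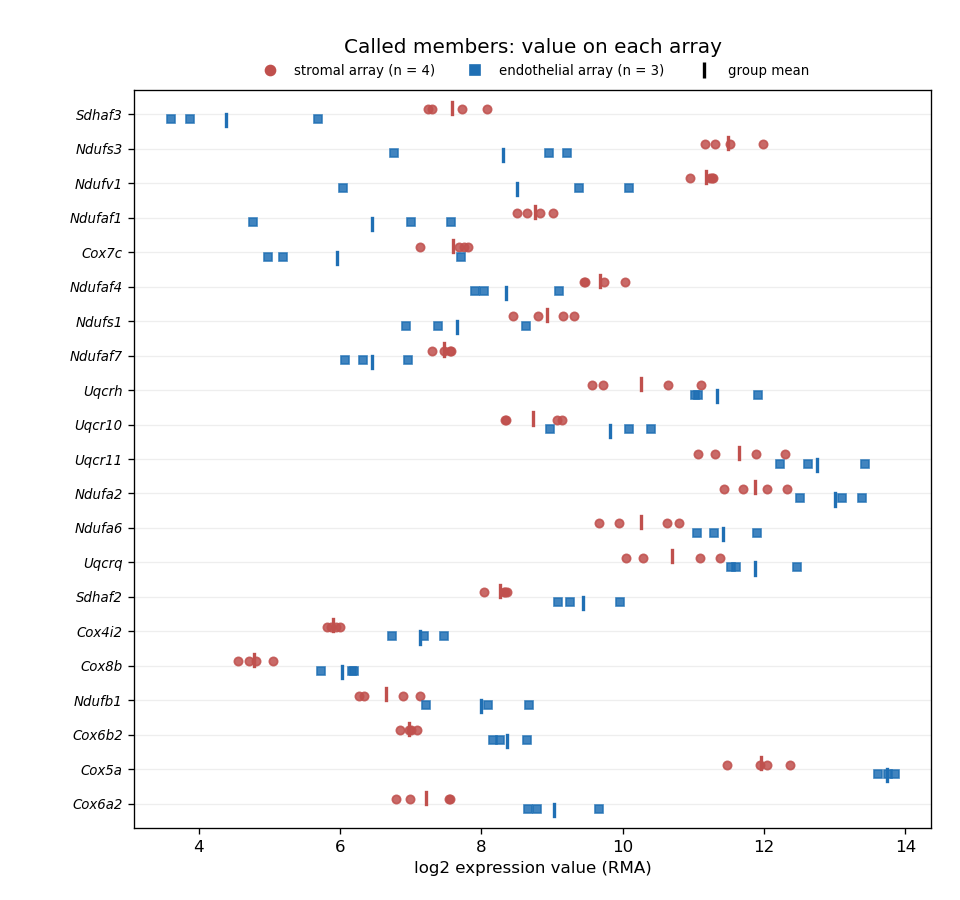
Log2 expression value on each of the 7 arrays for the 21 genes called, 1 row per gene; circles are the 4 stromal arrays, squares below them the 3 endothelial arrays, and vertical ticks the group means. Cox5a and Cox6b2 have compact, separate groups, while in Ndufv1 and Ndufaf1 endothelial 3 lies far below the rest.

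Complex V, ATP synthase, had 0 of 17 subunits called in either direction, beside 30.9% and 16.1% of all genes, at a median of -0.25. At adjusted p alone, 2 were higher on stromal and 4 on endothelial arrays, smaller shares than the 36.9% and 31.5% of all genes. Both of the stromal ones turn with the rotor: Atp5d, the delta subunit of the stalk, differed by 0.94 (adjusted p = 0.0065), and Atp5g3 encodes the c ring. Atp5g3 measured 13.73, 13.64, 13.86 and 13.71 on stromal arrays and 13.19, 13.26 and 13.17 on endothelial arrays. The groups were apart with little spread, at 0.53 ± 0.16 (SE; limma adjusted p = 0.0163). The other genes for the same c subunit, Atp5g1 and Atp5g2, were not called.

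Atp5g1 measured 8.73, 8.98, 9.26 and 8.22 on stromal arrays and 8.75, 9.24 and 8.97 on endothelial arrays. Atp5g2 measured 8.95, 9.15, 9.36 and 8.35 on stromal arrays and 8.76, 9.36 and 9.47 on endothelial arrays. Both overlapped, at -0.19 and -0.25 (adjusted p = 0.54 and 0.465), and their signs changed with some settings. In the F1 part, Atp5b, the beta subunit, measured 11.28, 10.76, 10.47 and 11.39 on stromal arrays and 10.57, 10.29 and 10.20 on endothelial arrays, at 0.62 (adjusted p = 0.0607). Atp5a1, the alpha subunit, measured 12.78, 12.83, 12.30 and 13.41 on stromal arrays and 12.25, 13.04 and 12.04 on endothelial arrays, at 0.39 (adjusted p = 0.311). Its other 2 probe sets gave 0.59 and -1.30, so no direction can be given for it.

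The 4 subunits of complex V higher on endothelial arrays at adjusted p alone belong to the peripheral stalk and the membrane part. They were Atp5pb (-0.78) and Atp5h (-0.54) of the stalk that holds the head still, and Atp5mpl (-0.82) and Atp5k (-0.73) of the membrane part. Atp5l, another membrane subunit, had a larger difference of -1.03 but more spread, and did not pass (adjusted p = 0.096). The F1 part had a median of 0.39 over 5 subunits and the other 12 subunits one of -0.41. The remaining subunits lay between -0.87 (Atp5j2) and 0.18 (Atp5c1).

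The assembly and related factors within the rule had a positive median: of 14 tested, 4 were called higher on stromal and 1 on endothelial arrays, which is no larger a share than the 30.9% and 16.1% of all genes, and the median difference was 0.92. Only 2 were called higher on stromal arrays under either scaling. Sdhaf3, which helps mature the iron-sulfur subunit of complex II, measured 7.25, 7.73, 8.08 and 7.30 on stromal arrays and 5.68, 3.87 and 3.60 on endothelial arrays. Its endothelial mean lay below the 40th percentile of those arrays, so its difference of 3.20 (limma adjusted p = 0.000775) is limited by the floor. Ndufaf1, an assembly factor for the membrane arm of complex I, measured 8.65, 8.83, 8.51 and 9.02 on stromal arrays and 7.01, 7.57 and 4.76 on endothelial arrays. All endothelial arrays were lower, endothelial 3 most, and the difference was 2.31 (limma adjusted p = 0.00911), or 1.46 without endothelial 3. The call was lost with the hybridisation block.

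Ndufaf4, another complex I assembly factor, measured 9.47, 9.45, 10.04 and 9.73 on stromal arrays and 8.04, 7.91 and 9.10 on endothelial arrays, at 1.32 (limma adjusted p = 0.00665). It was not called under either scaling, and Ndufaf7, a methyltransferase for complex I, at 1.02 lay near the minimum difference and was not called in 7 of the 11 fits with another scaling, a block or an array left out. Sdhaf2, which helps attach the flavin to Sdha, measured 8.03, 8.33, 8.31 and 8.36 on stromal arrays and 9.08, 9.26 and 9.97 on endothelial arrays. It was the only assembly factor of the rule called higher on endothelial arrays, at -1.18 ± 0.24 (SE; limma adjusted p = 0.00339), and lost the call with the hybridisation block and without endothelial 3. Both directions therefore occur among the 4 factors for complex II, with Sdhaf3 at 3.20, Sdhaf1 at 1.41 (adjusted p = 0.107), Sdhaf4 at -0.64 and Sdhaf2 at -1.18.

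Several genes rested on a single probe set or on probe sets that disagreed. Of the 91 genes tested, 42 had 1 probe set tested and 49 had several. Among those 49, the differences had 1 sign in 33 and both signs in 16, and they spread by over 1 in 11, led by Sdhc (2.57), Atp5a1 (1.89), Sdha (1.65) and Sdhd (1.48). In the limma fit over probe sets, 12 of the 171 probe sets tested for these genes were called higher on stromal and 27 on endothelial arrays, compared with 26.0% and 14.6% of all probe sets tested.

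**Figure D3:**
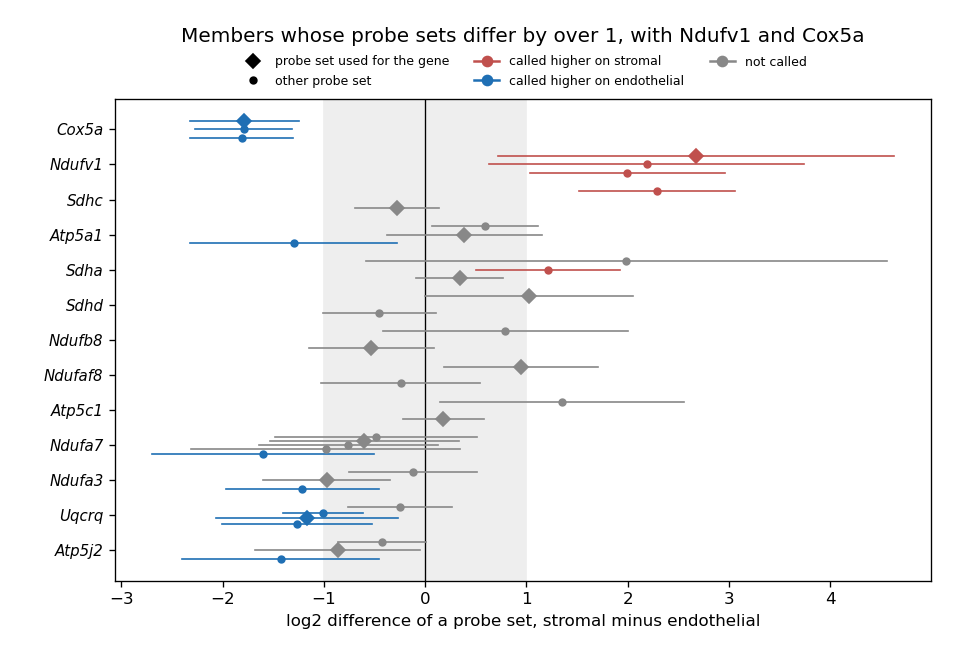
Log2 difference, stromal minus endothelial, of each probe set tested for the 11 genes whose probe sets spread by over 1, and for Cox5a and Ndufv1; points are probe sets (diamonds the one used for the gene), bars 95% intervals, colours the calls of the fit over probe sets, and the grey band differences under 1. The 3 probe sets of Cox5a coincide near -1.8, while those of Sdhc lie 2.57 apart.

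The accessory subunits also shared a pattern across arrays of the same group. Within the stromal group, stromal 3 was the highest array for 51 of 59 accessory subunits (86.4%), against 19.4% of all genes tested, and stromal 4 was the lowest for 39 (66.1%), against 23.1%. Within the endothelial group, endothelial 3 was the highest for 37 (62.7%), against 37.5%. Median deviations of the accessory subunits from their group mean were -0.16, 0.15, 0.40 and -0.42 on stromal 1 to 4 and -0.24, -0.06 and 0.25 on endothelial 1 to 3. Those of all genes tested lay between -0.08 and 0.07. Those of the core subunits were 0.04, 0.05, 0.08 and -0.19 on the stromal and 0.06, 0.04 and -0.12 on the endothelial arrays. Stromal 3 was the highest for 9 of the 18 core subunits (50%) and stromal 4 the lowest for 11 (61.1%), and the difference from the accessory subunits was not tested.

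The gap between the medians of stromal 3 and stromal 4 was thus larger than the median difference between the groups for these subunits (-0.54). A list of 47 cytosolic ribosomal protein genes, taken up after the pattern was seen, was highest on stromal 3 for 78.7% and lowest on stromal 4 for 74.5% of its genes. It was highest on endothelial 3 for 38.3%, near the 37.5% of all genes. The 3' minus 5' difference of the Actb control, a measure of how far the labelled RNA reaches from the 3' end, was 1.31, 1.64, 1.79 and 1.30 on stromal 1 to 4 and 0.65, 1.49 and 0.96 on endothelial 1 to 3. Stromal 3 had the highest value and stromal 4 the lowest of the stromal group, while in the endothelial group it was endothelial 2 that was highest. That of Gapdh was 3.07, 3.30, 3.17 and 3.51 on the stromal and 2.54, 3.50 and 2.37 on the endothelial arrays, with stromal 4 highest. Their part in the differences between subunits was not tested.

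**Figure D4:**
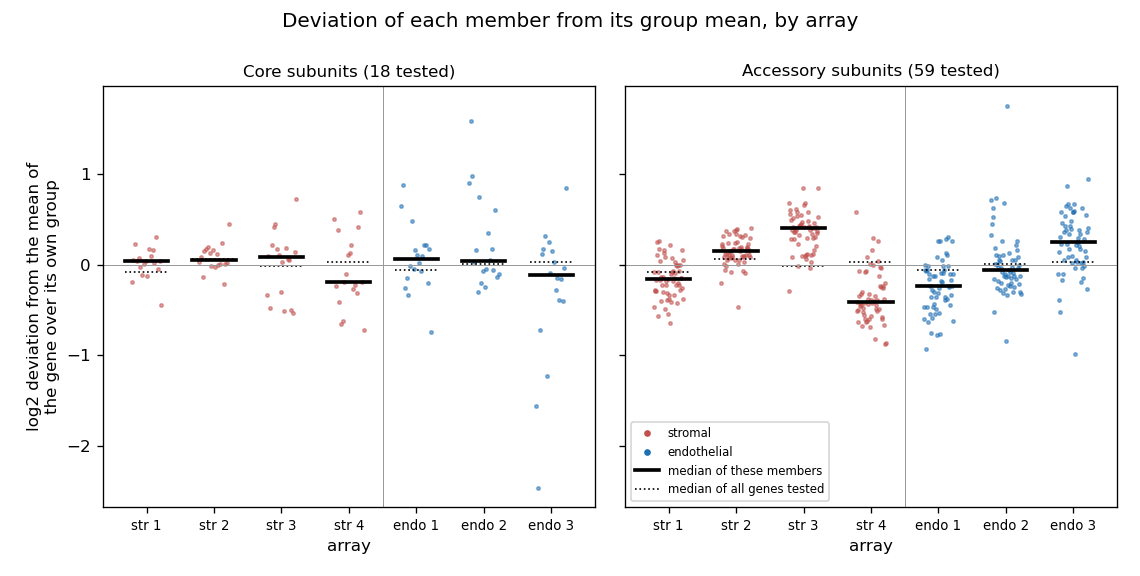
Log2 deviation of each subunit from its mean over the arrays of the same group, on each of the 7 arrays, for 18 core subunits (left) and 59 accessory subunits (right); points are genes, thick bars their median and dotted bars the median of all genes tested, with stromal arrays left of endothelial ones. The accessory median is 0.40 on stromal 3 and -0.42 on stromal 4, while that of all genes lies between -0.08 and 0.07.

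Genes around the chain gave a further comparison. The tricarboxylic acid cycle and pyruvate dehydrogenase, which supply NADH and succinate, had 10 of 15 genes called higher on stromal arrays and 0 on endothelial arrays, with all 15 differences positive and a median of 1.13 (0.75 and 0.71 under the 2 scalings, with 13 of 15 positive). Over all genes 30.9% were called higher on stromal arrays, with a median of 0.19. The count of 10 was 4 with quantile normalization, 5 with loess and 6 without endothelial 3. Over all 13995 genes the count of 4319 was 3242, 3269 and 4140 in the same fits. With quantile normalization the share called was thus near that of all genes. With the hybridisation block the median was 1.05, beside 0.29 over all genes. Suclg2, a succinyl-CoA ligase subunit, measured 9.36, 9.39, 9.01 and 9.47 on stromal arrays and 7.12, 7.29 and 7.21 on endothelial arrays, at 2.10 (limma adjusted p = 2.68e-05). Dlst, of the oxoglutarate dehydrogenase complex, measured 11.12, 10.89, 10.70 and 10.70 on stromal arrays and 9.87, 8.43 and 7.94 on endothelial arrays, at 2.11 (adjusted p = 0.0029). Dld, shared by both dehydrogenase complexes, differed by 2.42, with an endothelial mean below the 40th percentile. Etfdh, which passes electrons from fatty acid oxidation to ubiquinone, was higher on stromal arrays by 2.55 (adjusted p = 0.00075), and Dhodh, of pyrimidine synthesis, by 1.09. Etfb, an electron carrier to Etfdh, was lower by 1.46 on the log2 scale (adjusted p = 0.000994).

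Assembly factors outside the rule had 13 of 29 genes called higher on stromal and 3 on endothelial arrays, beside 30.9% and 16.1% of all genes, with a median of 0.93 (0.71 and 0.67 under the scalings). These counts were 5 and 4 with quantile normalization, and 6 and 4 with loess. Over all 13995 genes they were 3242 and 2994 with quantile normalization, and 3269 and 2391 with loess. Under both scalings the shares called in each direction were thus smaller than those of all genes. Ttc19, an assembly factor of complex III, differed by 3.18, the copper chaperone Sco1 of complex IV by 2.16, and Tmem70, for ATP synthase, by 2.09, all 3 with endothelial means below the 40th percentile. Sco1 passed the low-signal filter only through the stromal arrays, so its call adds no support. Another 3 genes, all for complex IV assembly, were called the other way, at -1.89 for Coa5, -1.60 for the copper chaperone Cox17 and -1.15 for Cox20. The largest difference toward endothelial arrays among the genes read around the chain was that of Atpif1, the inhibitor that binds ATP synthase when it runs in reverse. It measured 9.93, 10.73, 10.71 and 10.13 on stromal arrays and 13.35, 13.39 and 13.55 on endothelial arrays. All endothelial arrays were above all stromal ones, by -3.06 ± 0.24 (SE; limma adjusted p = 1.88e-05), an 8.31-fold difference.

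Regulators of nuclear mitochondrial genes had 4 of 10 genes called, all higher on stromal arrays, beside 30.9% of all genes. Gabpa, the ETS factor named above, measured 10.33, 9.85, 9.63 and 11.17 on stromal arrays and 6.34, 9.87 and 5.86 on endothelial arrays. Endothelial 2 lay within the stromal range, and the difference was 2.89 ± 0.90 (SE; limma adjusted p = 0.0209). The coactivators Pprc1 (whose endothelial mean of 5.37 lay below the 40th percentile) and Ppargc1b differed by 2.83 and 1.07, and Tfam, which packages mitochondrial DNA, by 1.36 with overlap. Nrf1 (-0.45), Esrra (0.36) and Ppargc1a (-0.46) were not called. Of 12 general mitochondrial genes, 2 were called higher on stromal arrays (Immt at 1.39 and Hspa9 at 1.16) and 3 on endothelial arrays (Vdac3 at -1.34, Tomm22 at -1.24 and Vdac1 at -1.06), with a median of 0.50. The shares of all genes called were 30.9% and 16.1%. ND5, the mitochondrially encoded subunit of complex I that the array holds, differed by -0.33 and was not called (adjusted p = 0.411).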

How the data were processed

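Arrays were hybridised with amplified RNA from sorted cells, per the labels' protocols. The deposited table holds log2 values. The authors processed the scans by RMA in Affymetrix Expression Console 1.1, per the submitters' processing notes. Which arrays were normalized together is not given in the sources used here. Of 45101 probe sets, 34945 named 1 gene in the platform annotation, 932 several, 9160 none and 64 were controls. Of a gene's probe sets naming it alone, the brightest on average was used. Genes under the 40th percentile of the array on more than 4 of the 7 arrays were not tested. Differences were fitted with limma 3.58.1 (lmFit, eBayes, no covariates) in R 4.3.3 and adjusted by Benjamini-Hochberg over 13995 genes. The procedure was tested on simulated data. The alternatives were 2 other filters, 2 other choices of probe set, 2 scalings, another variance model, adjusted p alone, 2 blocks and each array left out.

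Genes named with values on every array were, per complex and among related factors, up to 3 called in each direction with the largest difference, plus a list of isoform sets and core subunits. Genes and lists were chosen with earlier results of these data known. All 94 genes matched RefSeq's table of GRCm38.p6 by Entrez identifier. No 2 arrays were identical, and 10 probe sets naming several genes were left out.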

Additional observations from a re-analysis of the deposited data

Results flagged for a closer look

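In 4 of 94 genes, 1 of the 4 stromal arrays stood apart from the other 3 by Dixon's test at the 95% level, a rate that chance gives in about 5% of groups. Cox4i1 was 12.75 on stromal 4 and 13.17 to 13.25 on the others. Ndufv1 was 10.95 on stromal 4 and 11.23 to 11.28 on the others. Sdhaf2 was 8.03 on stromal 1 and 8.31 to 8.36 on the others. Uqcrc2 was 10.33 on stromal 3 and 10.96 to 11.05 on the others.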

How the results depend on the processing

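Every alternative kept the deposited RMA values as its start, and the scalings, blocks and leave-outs kept the same probe sets and genes tested. The count higher on stromal arrays (8) was 5 under a second quantile normalization, 4 under cyclic loess and 16 at adjusted p alone, and ranged between 5 (without stromal 1) and 15 (without endothelial 2) when single arrays were left out. The count higher on endothelial arrays (13) was 25 at adjusted p alone, 8 with the replicate block and 4 with the hybridisation block, and ranged between 6 (without endothelial 3) and 18 (without stromal 3), with 7 without stromal 4. The median difference (-0.23) was 0.0082 with the hybridisation block and ranged between -0.34 and -0.05 without single arrays. Over all genes, 4412 were higher on endothelial arrays at adjusted p alone, against 2252. The cause of these shifts was not tested, beyond the lower threshold and the fewer arrays by construction.

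Same-numbered arrays were not treated as pairs in the main fit. Their deviations correlated at -0.00214, 0.0346 and 0.117 across genes. These values cannot tell whether same-numbered arrays share mice or a sort. The replicate block leaves stromal 4 alone in its block, so its differences equal those without stromal 4. The hybridisation block compares endothelial 1 alone with the stromal arrays and assumes that it varies like the others.

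Among the genes given on every array, 538 comparisons with an alternative kept direction and call, 54 lost the call, 11 gained it and 16 changed sign, all in uncalled genes. Cox8c became -0.30 with the mean of its probe sets, -0.77 without cross-hybridising probe sets, -0.52 with quantile normalization, -0.49 with loess and -0.10 with the hybridisation block. Atp5g1 became 0.25 with the mean of its probe sets, 0.00033 with the replicate block and without stromal 4, and 0.045 with the hybridisation block. Cox6a1 became 0.044 with quantile normalization, 0.35 with loess and 0.064 with the hybridisation block, and ranged between -0.086 and 0.082 without single arrays, positive without stromal 1 (0.01) or endothelial 3. Atp5a1 became -0.11 with the mean of its probe sets, and Atp5g2 became 0.19 with the hybridisation block. Without cross-hybridising probe sets 70 of the genes could be tested. Signals near the array floor, such as those of Sdhaf3 and Cox8b, bound how far their differences can be read.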
